A study of Rickenella mellea with 14 samples.

Results

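In the mushroom Rickenella mellea, 57 of 15477 genes (0.368%) were higher than in vegetative mycelium in the mean of each of 4 groups of fruiting body samples, with means that lay close together. They were selected on the deposited log2 RPKM values (reads scaled by gene length and by library size, on a log2 scale). A gene was taken where the mean of each of the 4 field-collected groups lay at least 2 log2 units above the mycelium mean. All 11 field values also had to lie above all 3 mycelium values, and the highest and lowest field mean had to lie less than 1 apart. The first condition left 524 genes, the second 344 and the third 57, so the evenly expressed genes were 16.6% of those on throughout fruiting. Here "on" means higher than in mycelium by the first and second conditions, and does not mean that mycelium held no read.

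Polyadenylated RNA was sequenced from 3 primordium, 3 young fruiting body, 3 cap and 2 stipe samples, the caps and stipes being those of mature bodies, and from 3 samples of cultured vegetative mycelium. The primordium group joined 1 library of stage 1, a shaft-like body with no visible cap, with 2 libraries of stage 2, which has a small cap initial. All fruiting stages came from the field and the mycelium from Fries agar, and the labels give strain SZMC22713 for every sample. Mycelium was also sequenced on a flow cell of its own, 1 of 2, so in any difference from mycelium the effects of stage, of growth in the field or in culture and of the flow cell cannot be told apart. How many individuals went into a library is not given, so the spread between replicates may be partly technical. In such bulk RNA, fewer cells of a type and less RNA per cell cannot be told apart. Library totals ran from 13.6 to 54.6, in units of 1e6 reads. Because the files carry no gene products, the genes are named by the number of their model, with no role given, and the tissue labels could not be checked against marker genes.

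A mushroom begins as a mycelium, a network of hyphae that feeds in its substrate. Hyphae aggregate into a primordium, in which cap and stipe are laid down, and the fruiting body then expands largely by growth of cells already formed. Some genes are switched on for a single stage or tissue of the fruiting body. Others, like those described here, have a higher mean than in mycelium in each group from the primordium to the mature cap and stipe.

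As a group, the 57 genes made up a small part of the transcriptome in every library. The sum of their deposited TPM (a level per gene length, relative to the whole library) was 3894 ± 1123 in primordia, 5613 ± 761 in young fruiting bodies, 6209 ± 811 in caps (SD, n = 3 each) and 5909.6 ± 816 in stipes (SD, n = 2), against 406 ± 23.1 in mycelium (SD, n = 3). Over the 4 field means this was 13.3 times the mycelium mean. Every field library, from 2684 TPM in a stage 2 primordium to 6702 TPM in a cap, lay above every mycelium library. The selection required each gene to be higher in the field, so the ratio and this separation are a description only. A few genes weigh heavily in the sum. The highest gene of a library held from 16.2% of it (cap 2) to 35.7% (young fruiting body 2). The primordia were the lowest of the 4 field groups by the mean. TPM carries no scaling between libraries beyond that, whereas the matrix used for selection was also TMM scaled, with factors that were 0.5726 to 0.7863 in primordia.

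**Figure D1:**
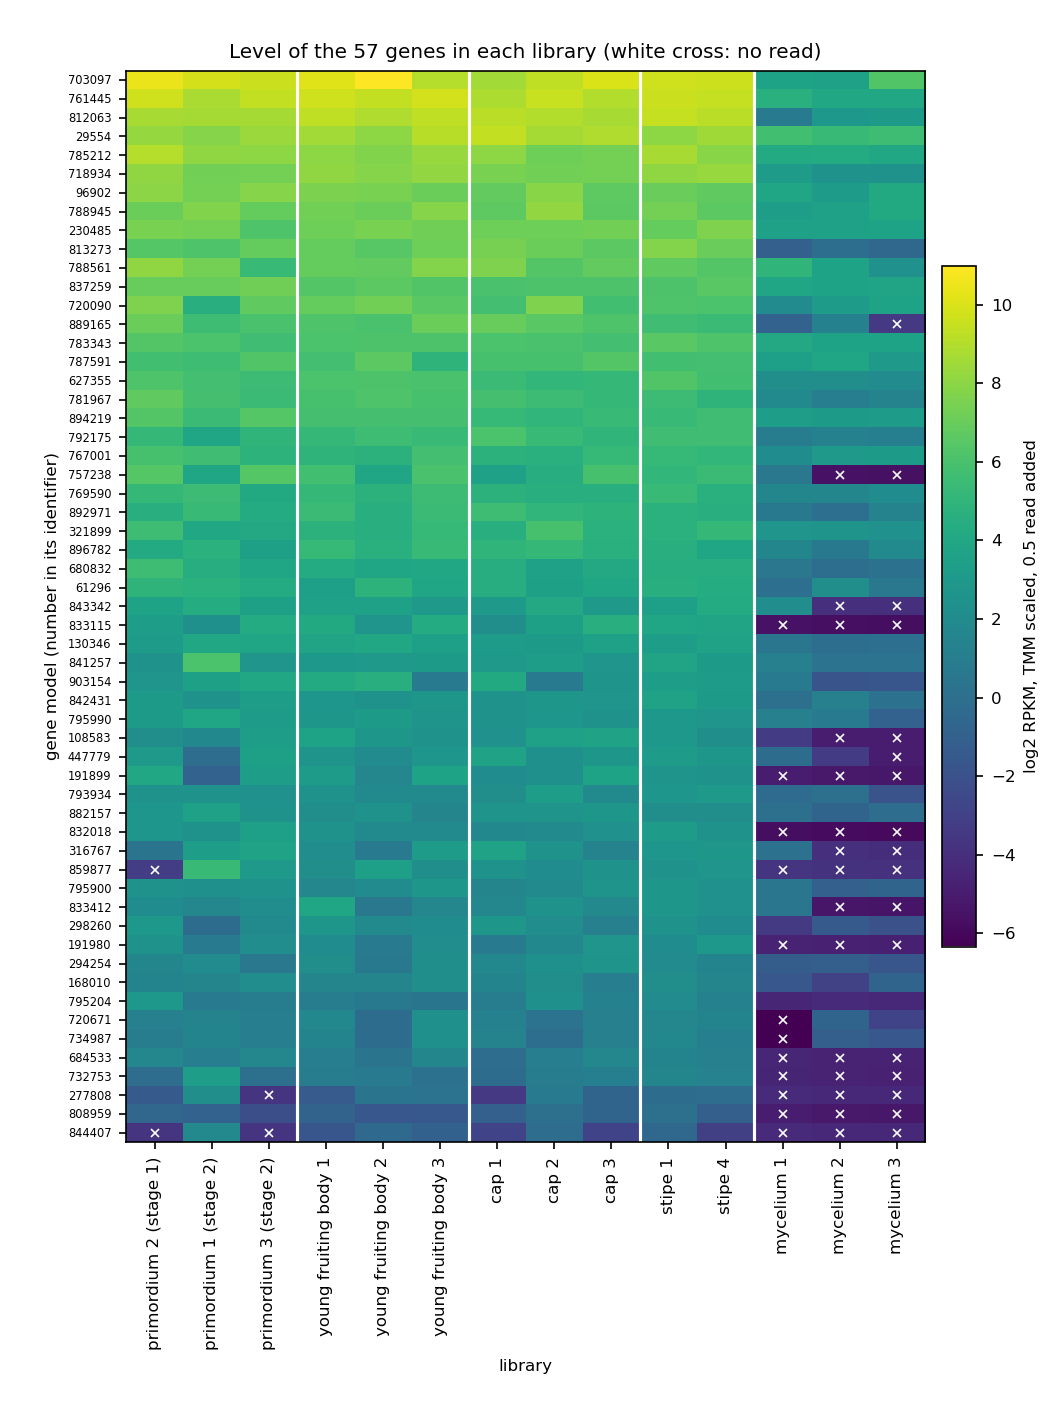
Log2 RPKM (colour) of the 57 genes (rows, from the highest to the lowest field level) in each of 14 libraries (columns, field groups left of mycelium); white crosses mark libraries with no read. Every row is brighter in the 11 field libraries than in the 3 mycelium libraries, and 10 rows carry crosses in all 3 mycelium columns.

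Levels spanned a wide range. As the mean RPKM of the 4 field groups, 12 genes were at 100 or above, 21 from 10 to under 100, 22 from 1 to under 10 and 2 under 1. The 3 highest were gene models 703097, 761445 and 812063. Gene model 703097 had 945 and 776 RPKM in stage 2 primordia, 1450.02 in the stage 1 primordium, 1109, 2022 and 535 in young fruiting bodies, 378, 653 and 1029 in caps and 869 and 809.5 in stipes, against 12.9, 11.7 and 77.3 in mycelium. Its lowest field library, a cap, was still above its highest mycelium library, but its field libraries overlapped freely between groups. Its field mean lay 5.26 log2 units above mycelium, and the mycelium value itself rested on 1 library that stood above the other 2.

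Gene model 761445 had 445 and 664 RPKM in stage 2 primordia, 859.8 in the stage 1 primordium, 858, 663 and 881 in young fruiting bodies, 464, 731 and 506 in caps and 768 and 706 in stipes, against 24.7, 16.5 and 16.4 in mycelium. The field groups overlapped, with the lowest values in a primordium and a cap. Gene model 812063 was tighter. It had 408 and 403 RPKM in stage 2 primordia, 427 in the stage 1 primordium, 643, 495 and 656 in young fruiting bodies, 572, 504 and 419 in caps and 697 and 584 in stipes, against 1.77, 7.31 and 8.47 in mycelium. The 3 primordia lay close together, below every young fruiting body and stipe library, and 1 cap fell among them. Its field mean was 6.76 log2 units above mycelium, with a pooled SD within field groups of 0.18.

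The other 9 genes at 100 RPKM or above included 29554, 785212, 718934 and 813273, described here after their values were seen. Gene model 29554 had 227 and 333 RPKM in stage 2 primordia, 302 in the stage 1 primordium, 375, 261 and 569.9 in young fruiting bodies, 685, 411 and 476 in caps and 267 and 359 in stipes, against 53.0, 42.2 and 49.6 in mycelium. It was the highest of the 57 by deposited TPM in 2 of the mycelium libraries and in cap 1. Gene model 785212 was highest in the stage 1 primordium, at 537 RPKM, and lowest in a cap, at 140.2 RPKM, against 16.7 to 20.3 RPKM in mycelium. Gene model 718934 had 154 and 162 RPKM in stage 2 primordia, 279 in the stage 1 primordium, 274, 226 and 288 in young fruiting bodies, 182, 154 and 166 in caps and 279.5 and 313 in stipes, against 9.51, 5.51 and 5.93 in mycelium. All 3 of its caps lay below all of its young fruiting bodies and stipes. Gene model 813273 had the largest difference, 7.49 log2 units, of the genes read in all 3 mycelium libraries. Its level was 74.1 and 119 RPKM in stage 2 primordia, 85.6 in the stage 1 primordium, 118, 91.4 and 144 in young fruiting bodies, 170.3, 134 and 99.98 in caps and 213 and 132 in stipes, against 0.441, 0.886 and 0.657 in mycelium.

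The height of the step from mycelium also varied. The mean field minus mycelium difference, in log2 units of the matrix, was 2 to under 3 in 13 genes, 3 to under 4 in 15, 4 to under 6 in 19 and 6 or more in 10, with a median of 4.04. The selection used this contrast, so the values are a description only. In the quasi-likelihood test of edgeR, 53 of the 57 were called higher than mycelium in all 4 field groups at an adjusted p under 0.05 and 2-fold, beside 5.33% of all 15559 genes tested. The other 4 were gene models 843342, 844407, 277808 and 833412. Of these, 844407 and 277808 had no mycelium read, and 843342 and 833412 had mycelium reads in replicate 1 alone.

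For 10 genes no mycelium library held a read, 5 had none in 2 of the libraries, 4 had none in 1 and 38 were read in all 3. Among the genes with no mycelium read, 833115 and 191899 had the highest mean log2 RPKM over the field groups. Gene model 833115 had 5.06 and 20.2 RPKM in stage 2 primordia, 10.4 in the stage 1 primordium, 17.9, 6.36 and 19.6 in young fruiting bodies, 4.67, 11.5 and 22.7 in caps and 15.2 and 13.9 in stipes. Against a floor of 3 reads over the mycelium group, its mean field level was at least 333-fold higher. The 3 caps held both its lowest and its highest field value.

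Gene model 191899 had 0.494 and 10.1 RPKM in stage 2 primordia, 16.5 in the stage 1 primordium, 9.54, 3.15 and 13.2 in young fruiting bodies, 4.18, 5.20 and 12.9 in caps and 6.04 and 5.92 in stipes. It was at least 138-fold higher than the mycelium floor. Its lowest value came from 5 reads in a stage 2 primordium. Gene model 832018, also with no mycelium read, had 5.51 and 10.999 RPKM in stage 2 primordia, 6.88 in the stage 1 primordium, 5.93, 3.78 and 3.64 in young fruiting bodies, 3.41, 3.66 and 5.36 in caps and 9.31 and 5.98 in stipes. It was at least 169-fold higher than the floor, and all its primordia and stipes lay above all its caps.

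Gene model 757238 had the second largest difference from mycelium. It had 14.1 and 85.3 RPKM in stage 2 primordia, 83.4 in the stage 1 primordium, 53.6, 15.2 and 64.3 in young fruiting bodies, 11.8, 21.6 and 62.1 in caps and 34.3 and 44.2 in stipes, against 1.52, 0 and 0 in mycelium. All of its 30 mycelium reads came from replicate 1. It was one of 8 genes with at least 8 reads in 1 mycelium library and 0 in another. In 4 of these only replicate 1 held reads, the others being 843342 with 31, 833412 with 24 and 316767 with 8. The mycelium values ranged over 2 log2 units or more in 15 of the 57 genes (26.3%), against 13.6% of all genes in the matrix. The selection favoured genes low in mycelium, with a median mycelium log2 RPKM of 0.14 against 3.33 over the matrix. Log2 values from few reads vary more, so nothing is read from that difference.

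Low counts also entered the selection at the other end. Gene models 277808, 844407 and 859877 had no read in 1, 2 and 1 of the primordium libraries. They nevertheless met the condition that all field values exceed all mycelium values, because the matrix adds 0.5 read to each count and the primordium libraries were scaled to smaller effective sizes than the mycelium libraries. Among libraries without a read, the order of these values follows from the effective library size alone. Over the 57 genes, the gap between the lowest field and the highest mycelium value had a median of 2.09 log2 units, was 2 or more in 29 genes and under 1 in 12, and was 0.052 at the smallest.

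**Figure D2:**
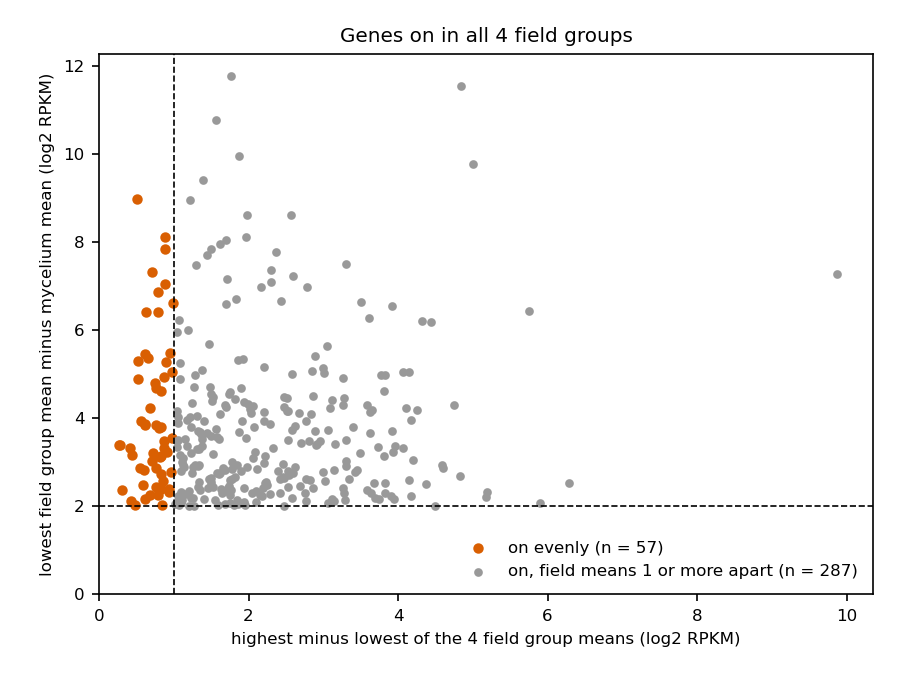
Range over the 4 field group means (x, log2 RPKM) against the lowest field mean minus the mycelium mean (y, log2 RPKM) for the 344 genes on in all field groups; the 57 even genes are orange, the other 287 grey, and dashed lines mark the limits of 1 and 2. The even genes fill the strip left of the dashed line without forming a cluster separate from the grey points.

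The limits of 1 and 2 cut through a continuous distribution. Gene models 321899 and 894219, with smallest differences from mycelium of 2.01 and 2.02, were just inside, and 701293 and 763078, with 1.98 and 1.95, just outside. Likewise 889165 and 792175, whose field means spanned 0.99 and 0.98, were inside, and 453932 and 847083, spanning 1.01 and 1.04, outside. The range over the field means had a median of 0.76 (0.27 to 0.99), and 7 genes were under 0.5.

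The smallest ranges were those of 168010 (0.27), 230485 (0.28) and 787591 (0.30). Gene model 168010 had 2.82 and 4.33 RPKM in stage 2 primordia, 2.72 in the stage 1 primordium, 2.89, 2.83 and 4.87 in young fruiting bodies, 2.76, 4.60 and 2.13 in caps and 4.62 and 2.83 in stipes, against 0.278, 0.0829 and 0.553 in mycelium. Its mycelium values stood for 3, 1 and 7 reads. Each field group held both high and low libraries, so the 4 means agreed more closely than the libraries behind them.

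Gene model 230485 had 163 and 74.5 RPKM in stage 2 primordia, 182 in the stage 1 primordium, 145, 183 and 151 in young fruiting bodies, 143, 143 and 156 in caps and 118 and 200.4 in stipes, against 12.04, 12.2 and 12.9 in mycelium. One primordium was low, and the lowest stipe was below every cap. Gene model 787591 had 48.3 and 79.4 RPKM in stage 2 primordia, 53.2 in the stage 1 primordium, 54.9, 99.03 and 30.7 in young fruiting bodies, 62.4, 60.2 and 83.2 in caps and 53.8 and 56.8 in stipes, against 10.7, 14.4 and 8.09 in mycelium. Here the young fruiting bodies alone spanned the whole field range.

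**Figure D3:**
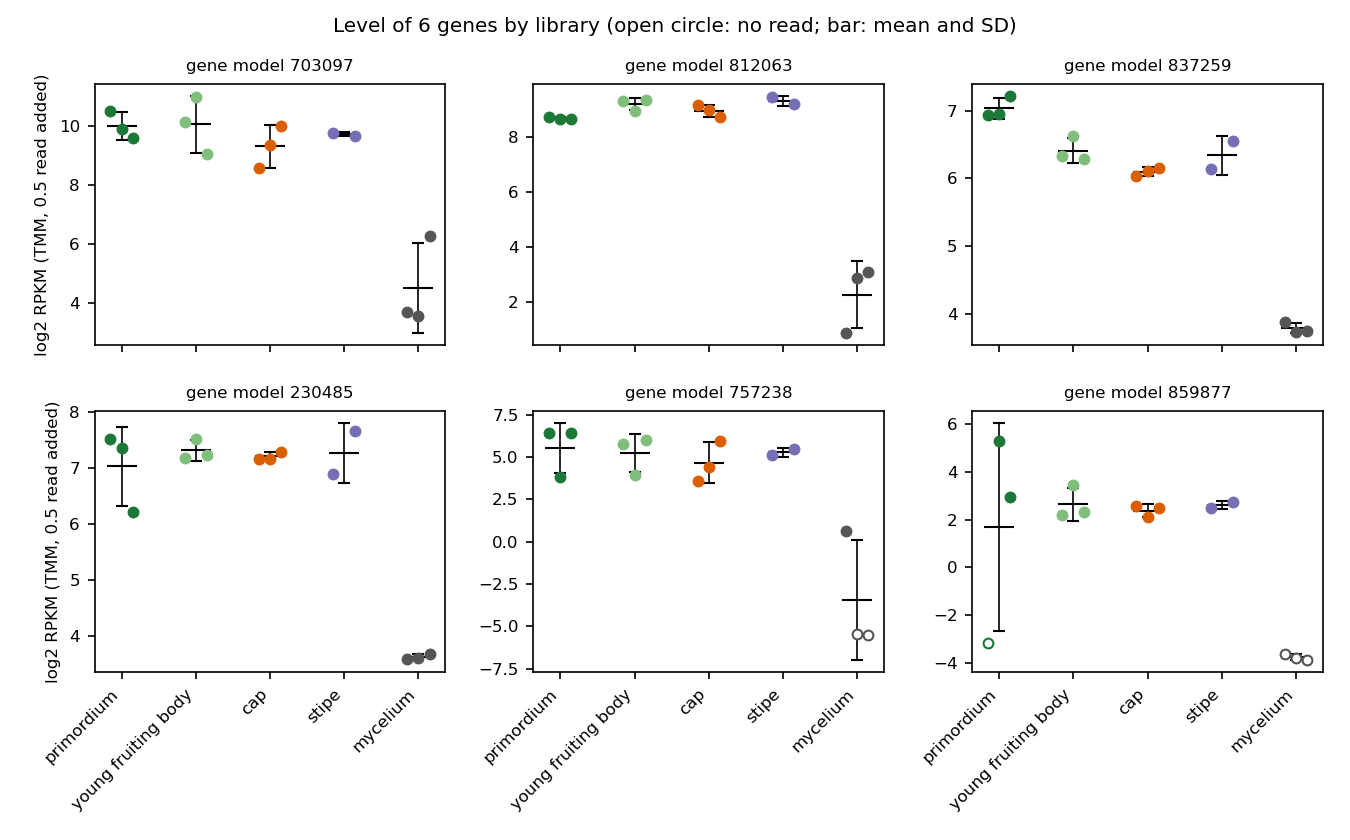
Log2 RPKM (y) by group (x) for gene models 703097, 812063, 837259, 230485, 757238 and 859877, with 1 point per library, open circles for libraries with no read, and bars for the mean and SD. The points of 812063 and 837259 lie close together within each field group, while those of 757238 spread in primordia, young fruiting bodies and caps and those of 859877 mainly in primordia.

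Over the 11 field libraries, a gene's highest and lowest log2 value lay a median of 1.87 apart (0.79 to 8.46), under 1 in 4 genes and under 2 in 32. The pooled SD within field groups had a median of 0.528 log2 units in the 57 genes. It was 0.697 in the 287 genes that were on but uneven and 0.547 in all genes of the matrix. The selection bears on this spread too, since it kept every field library above mycelium. Genes with a wide spread also less often have means under 1 apart, so these medians are a description only. The SD between the 4 field means, which the selection bounded, had a median of 0.341 in the 57 genes and 0.772 in all genes of the matrix. Within-group spread exceeded the spread between means in 48 of the 57 genes (84.2%), and in 36.7% of all genes in the matrix. Because the selection bounded the means, nothing is read from that difference.

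**Figure D4:**
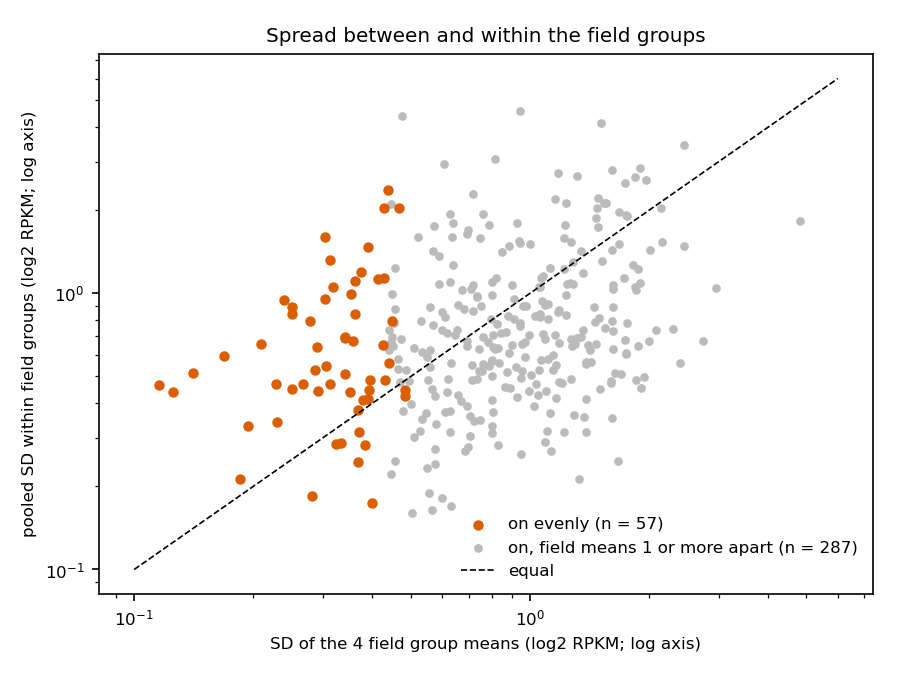
SD of the 4 field group means (x) against pooled SD within the field groups (y), both in log2 RPKM on log axes, for the 57 even genes (orange) and the other 287 genes on in all field groups (grey); the dashed line marks equal spread. Of the even genes, 48 lie above the line, and their vertical spread overlaps that of the grey points.

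The steadiest genes within groups were 837259, 812063 and 783343, with pooled SDs of 0.17, 0.18 and 0.21. Gene model 783343 had 67.4 and 51.8 RPKM in stage 2 primordia, 81.4 in the stage 1 primordium, 66.8, 70.4 and 70.2 in young fruiting bodies, 68.6, 64.3 and 55.8 in caps and 93.6 and 75.3 in stipes, against 17.3, 13.3 and 13.3 in mycelium. The first 3 field groups overlapped. Both stipes lay above every young fruiting body and cap, and the stage 1 primordium lay between the 2 stipes. The least steady were 859877 and 277808, with SDs of 2.37 and 2.04. That of 859877 came mainly from its primordia, which held 39.3, 7.72 and 0 RPKM, the last with a log2 value set by the added 0.5 read, while its caps (4.23 to 5.95 RPKM) and stipes (5.62 and 6.54 RPKM) were close together. Gene model 277808 had 4.69 and 0 RPKM in stage 2 primordia, 0.303 in the stage 1 primordium, 0.375, 1.20 and 1.18 in young fruiting bodies, 0.0773, 1.82 and 0.584 in caps and 0.823 and 0.867 in stipes, with no mycelium read. With 176 reads over all libraries, its 4 similar means rest on few reads.

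With this spread, few differences between field groups could be bounded closely. Only 2 genes, 230485 and 783343, had 95% intervals from edgeR inside 1 log2 unit in either direction for all 6 pairs of field groups, and in 36 genes the interval of every pair reached beyond 1 log2 unit.

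In the edgeR F test over the 4 field groups, 3 of the 57 genes passed an adjusted p of 0.05, beside 47.1% of all genes tested. The contrasts share libraries, and the selection bounded each of them, so nothing is read from these counts. For young fruiting body minus primordium 1 gene passed, beside 39.1% of all genes, and for cap minus stipe 1 gene, beside 14.2%. No gene passed for cap minus young fruiting body, beside 3.37%, or for stipe minus young fruiting body, beside 7.76%, with 3 and 0 genes at an unadjusted p under 0.05 in edgeR, beside 19.1% and 23% of all genes.

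The 3 genes were 837259, 627355 and 894219, of which 627355 was named after its values were seen. Gene model 837259 had 124 and 149 RPKM in stage 2 primordia, 123 in the stage 1 primordium, 80.1, 98.6 and 78.0 in young fruiting bodies, 65.5, 69.2 and 71.3 in caps and 70.2 and 93.3 in stipes, against 14.7, 13.3 and 13.5 in mycelium. Every primordium was above every other field library. The edgeR log2 change for young fruiting body minus primordium was -0.62 ± 0.17 (SE, adjusted p = 0.0117). This difference depends on the scaling. The range over the field means of 837259 was 0.93 with TMM and 0.07 with library totals in its place. Gene model 627355 had 55.4 and 46.9 RPKM in stage 2 primordia, 73.0 in the stage 1 primordium, 68.6, 70.9 and 64.0 in young fruiting bodies, 44.2, 35.3 and 36.4 in caps and 76.3 and 52.9 in stipes, against 4.54, 4.74 and 4.09 in mycelium. The 3 caps were the lowest field libraries. Its edgeR log2 change for cap minus stipe was -0.74 ± 0.23 (SE, adjusted p = 0.0498). The call was lost when any library other than primordium 2 or 3 was left out.

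Gene model 894219 passed the F test (edgeR adjusted p = 0.0315). It had 44.0 and 85.0 RPKM in stage 2 primordia, 82.9 in the stage 1 primordium, 59.9, 59.0 and 57.9 in young fruiting bodies, 38.2, 33.0 and 42.7 in caps and 42.7 and 51.7 in stipes, against 10.4, 8.65 and 8.97 in mycelium. The caps and 1 of the stipes were low, and the primordia spanned most of the range. With library totals in place of TMM, the range over its field means was 0.35 in place of 0.84. For 627355 that range was 0.84 in place of 0.82. Without young fruiting body 1, cap 1 or cap 2, only 1 of the 57 genes passed the F test.

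The group with the highest or lowest field mean was not fixed among the 57. The highest mean was in primordia for 15 genes, young fruiting bodies for 13, caps for 7 and stipes for 22. The lowest was in primordia for 15, young fruiting bodies for 8, caps for 27 and stipes for 7. Over all 15477 genes, the highest mean was in primordia for 4234, young fruiting bodies for 3126, caps for 3901 and stipes for 4216. Their lowest was in primordia for 7002, young fruiting bodies for 2340, caps for 3562 and stipes for 2573. As shares, primordia were highest for 26.3% of the 57 genes and 27.4% of all genes, and lowest for 26.3% and 45.2%. The selection bounded these means, so the counts are a description. This order among the 57 genes depended on the scaling. With library totals in place of TMM, the lowest field mean was in primordia for 48 of them and in caps for none. The highest was in primordia for none. With library totals the order was not counted over all genes. That scaling moved the median of all genes by -0.883 log2 units for primordium minus mycelium and by 0.016 for cap minus mycelium. For young fruiting body minus primordium the move was 0.556, and for cap minus stipe 0.198. Whether these moves account for the order was not tested.

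Many of the extreme values were in primordia, which with 14.3 to 18.4 (in units of 1e6 reads) were also the field libraries with the fewest reads. Whether depth or scaling bears on this was not tested, and the extremes were not counted over all genes. Of the 11 field libraries, the stage 1 primordium was the highest for 12 genes and the lowest for 4, while the stage 2 primordia were the lowest for 12 and 10 and the highest for 8 and 5. Stipe 1 was the lowest for 0 genes. Gene model 903154, chosen after its values were seen, showed how a group can hold both ends. It had 11.6 and 16.2 RPKM in stage 2 primordia, 6.36 in the stage 1 primordium, 19.2, 23.5 and 1.82 in young fruiting bodies, 18.5, 1.73 and 6.18 in caps and 10.1 and 9.41 in stipes, against 1.66, 0.266 and 0.290 in mycelium. A young fruiting body and a cap were close to the highest mycelium library, and the field means still spanned 0.87.

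Of the 57 genes, 11 met the selection with library totals, with DESeq2 size factors and with each library left out in turn. They were 761445, 788945, 837259, 627355, 769590, 680832, 61296, 843342, 130346, 795900 and 168010. Of these, 843342 was not called higher than mycelium in all field groups by edgeR, and its mycelium reads were in replicate 1 alone. Gene model 130346 had 16.1 and 14.2 RPKM in stage 2 primordia, 8.73 in the stage 1 primordium, 13.9, 16.4 and 10.6 in young fruiting bodies, 9.59, 8.59 and 11.7 in caps and 10.5 and 12.5 in stipes, against 1.33, 0.916 and 0.960 in mycelium. Its field groups overlapped throughout. Gene model 61296 had 26.8 and 19.6 RPKM in stage 2 primordia, 30.1 in the stage 1 primordium, 10.6, 29.1 and 14.9 in young fruiting bodies, 22.2, 11.2 and 14.4 in caps and 24.4 and 20.8 in stipes, against 0.954, 4.55 and 1.47 in mycelium. As a ratio, its mycelium libraries spanned more than its field libraries.

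The selection bounded the mean of the 3 primordium libraries and required each of them to lie above mycelium, but it did not set the 2 stages joined in that group against each other. The comparison of stages thus uses libraries that entered the selection, and its shares beside those of all genes are a description. The question was whether the 57 genes, even across the 4 groups, were also even between the stage without and the stage with a cap initial. The comparison set 2 stage 2 libraries against 1 stage 1 library in the edgeR fit, where the lone library is assumed to vary like the other groups. One of the 57 genes (1.75%) passed an adjusted p of 0.05, beside 2.65% of all 15874 genes tested. At an unadjusted p under 0.05 there were 8 of the 57 genes, against 17.3% of all genes. Stage 2 and stage 1 differed by over 1 log2 unit in 16 of the 57 (28.1%), against 34% of all genes tested. The median difference was -0.14 log2 units in the 57 genes and 0.01 in all genes, and its median size 0.51 and 0.59. Genes 859877 and 844407, with no read in the stage 1 library, lay above that median at their lower bounds too. For 844407 that bound rests on 20 reads in 1 stage 2 library. Its other stage 2 library, like the stage 1 library, held no read.

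The gene that passed was 859877. It had 39.3 and 7.72 RPKM in stage 2 primordia, from 153 and 33 reads, and no read in the stage 1 primordium. In the other libraries it had 4.57, 10.9 and 4.94 RPKM in young fruiting bodies, 5.95, 4.23 and 5.54 in caps and 5.62 and 6.54 in stipes, with no read in mycelium. The stage 2 level was at least 35.0-fold higher than the floor of 3 reads in the stage 1 library (edgeR adjusted p = 0.0351). The gene was thus not detected in the stage 1 library, although its primordium mean met the selection. The call rests on that 1 library, and leaving out any of young fruiting body 1, caps 1, 2 and 3 and stipes 1 and 4 moved its edgeR adjusted p to between 0.0545 and 0.0626.

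Gene model 841257, with the next smallest adjusted p among genes higher in stage 2, had 67.2 and 6.38 RPKM in stage 2 primordia and 5.56 in the stage 1 primordium, with 7.41, 7.74 and 8.69 in young fruiting bodies, 8.14, 10.0 and 6.58 in caps, 13.9 and 8.40 in stipes, and 2.31, 1.14 and 1.15 in mycelium. Its edgeR log2 difference of 2.72 ± 1.11 (SE, adjusted p = 0.243) did not pass and came from 1 library. The 2 with the smallest adjusted p among genes lower in stage 2 did not pass either. Gene model 795204 had 1.72 and 1.90 RPKM in stage 2 primordia and 7.52 in the stage 1 primordium, with 1.99, 1.57 and 1.32 in young fruiting bodies, 1.89, 5.14 and 2.39 in caps, 4.07 and 2.42 in stipes, and 0.0388, 0.0463 and 0.0441 in mycelium (edgeR log2 difference between the stages -2.05 ± 0.55, SE, adjusted p = 0.0784). The stage 1 library was its highest of all. For 680832 the levels were 21.9 and 14.9 RPKM in stage 2 primordia and 49.4 in the stage 1 primordium, with 11.7 to 22.1 in the other field libraries and 0.8997 to 1.43 in mycelium (edgeR log2 difference -1.43 ± 0.44, SE, adjusted p = 0.120). Here too the stage 1 library was the highest.

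**Figure D5:**
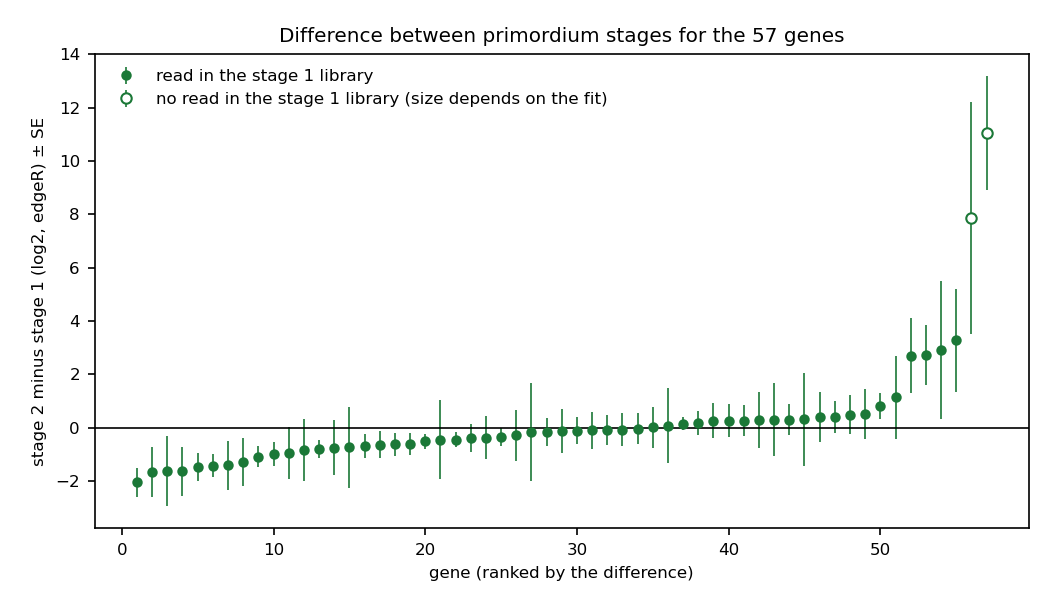
Log2 difference between stage 2 (2 libraries) and stage 1 (1 library) primordium for the 57 genes, ranked (x), with SE from edgeR (y); open circles mark genes with no read in the stage 1 library, whose size depends on the fit. In 16 genes the difference exceeds 1 log2 unit in either direction, and gene model 859877 is the open circle at the far right.

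The median length was 1036 bases in the 57 genes and 1196 bases over the matrix. In 43 of the 57 every read was unique to the model. Reads were shared in 720671 and 734987, both of 2466 bases and the only models of that length, which had no unique read in any library. Their levels moved together (Pearson's r = 0.986 over 14 libraries, as a description), and the counting may have divided the same reads between them, so they are uncertain as separate genes. Elsewhere the share of unique reads was 84.95% in 833412 and 93.6% in 767001, and at least 99% in 53 genes.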

How the data were processed

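The read mapper is not given in the sources used here, nor is the genome build. Per the file headers, the authors deposited read counts (total and unique) with RPKM and TPM values for 17139 gene models in each library, and a matrix of log2 RPKM values for 15477 of them. The matrix held exactly the models with at least 5 reads in at least 4 libraries. Recomputing it from the deposited counts, with TMM scaling and an added 0.5 read, matched 100% of its values within 1e-06. Tools named in the submitters' processing notes are edgeR 3.4.2, limma 3.18.13 and R 3.0.2.

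The RPKM levels given per library were computed here from total counts after TMM scaling, and the TPM sums from the deposited TPM. With edgeR 4.0.16 (R 4.3.3), the quasi-likelihood model was fitted to all 14 libraries (filterByExpr, 15559 genes, 5 groups, 9 residual degrees of freedom). The stages of the primordium were compared in a fit of 6 groups (15874 genes, 8 residual degrees of freedom). Benjamini-Hochberg adjustment covered all genes tested. Alternatives were DESeq2 1.42.0, limma-voom 3.58.1, other scalings and filters, unique reads and each library left out.

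The genes and lists were chosen with earlier results of these data known. Named genes were, among the 57, the 3 with the highest mean log2 RPKM in the field, the 3 with the largest difference from mycelium, the 3 with the smallest range, the 3 with the smallest and 2 with the largest spread within groups, the 2 with the smallest adjusted p in each direction between primordium stages, those just inside and outside each limit, the 2 without a mycelium read that had the highest mean log2 RPKM in the field and the 2 with the fewest unique reads. Lists by gene product could not be used, because no product names accompany the models. Counting floors take 3 reads and cover counting error only. The deposited files carry no sequence.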

Additional observations from a re-analysis of the deposited data

How the results depend on the processing

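The number of genes that met the selection was 57. It was 258 with a distance above mycelium of 1 in place of 2, 7 and 130 with a range under 0.5 and under 1.5, and 36 on log2(RPKM + 1). With library totals 44 genes met it, of which 23 were among the 57. With each library left out in turn it ran from 52 to 79, highest without mycelium replicate 1; 19 of the 57 met it in all 14 of these settings. Requiring a read in every field library, added after seeing the data, left 54.

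The count called higher than mycelium in all field groups was 44 to 54 with a library left out. The count differing among the field groups (3) was 9 with library totals, 1 in a fit of the 11 field libraries, and 1 to 4 with a library left out (1 without young fruiting body 1, cap 1 or cap 2). For cap minus stipe (1) it was 0 with library totals, 0 without a filter on low counts, 2 with DESeq2 and 0 to 1 with a library left out. For the primordium stages (1) it was 3 with DESeq2, 0 with limma-voom, and 0 to 2 with a library left out. The ratio of summed TPM stayed between 12.96 and 13.8 and the spread between 0.508 and 0.555 with a library left out. The causes were not tested.

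Replicate numbers showed no sign of pairing samples. After group means were removed, the 22 correlations of same-numbered libraries ran from -0.301 to 0.0803. The 56 of other-numbered libraries ran from -0.15 to 0.301. With 2 or 3 libraries per group these values are tied to one another, so they cannot exclude pairing. With the number as a replicate block, 40 genes were called above mycelium in all field groups, 0 for cap minus stipe and 0 for the primordium stages. Among named genes no direction reversed. The comparisons rest on 2 or 3 libraries per group, and on 1 stage 1 library between the primordium stages.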

Other observations

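After group means were removed, 10 of the 1596 pairs among the 57 genes (0.627%) had a Pearson's r above 0.9 over the 11 field libraries, against 0.461% of all gene pairs in the matrix. The points share libraries, and this is a description. Gene model 757238 was in 3 of these pairs, with 191980 (r = 0.969), 833115 (r = 0.928) and 191899 (r = 0.918). Of these 4 genes, 191980, 833115 and 191899 had no mycelium read, and 757238 had reads in 1 mycelium library only. Gene model 833115 was also paired with 684533 (r = 0.913), which had no mycelium read. Other pairs, such as 781967 with 783343 (r = 0.94), joined genes read in every mycelium library. The share of pairs was near that of all genes, so nothing is read from these pairs. The copy-like pair 720671 and 734987 reached r = 0.975.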
